A study of Brassica napus and Orychophragmus violaceus with 4 samples.

Results

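The genes described here encode the plastid 2-C-methyl-D-erythritol 4-phosphate (MEP) pathway. They are all *B. rapa* genes of the deposited read table whose best *Arabidopsis* match is one of 7 enzyme genes, namely *DXS* (AT4G15560), *DXR* (AT5G62790), *ISPD* (AT2G02500), *ISPE* (AT2G26930), *ISPF* (AT1G63970), *ISPG* (AT5G60600) and *ISPH* (AT4G34350). The rule found 13 genes among the 37441 in the table, and 12 of them had more than 3 reads in at least 1 library. The other gene, Bra041003, a *DXR* match on Scaffold000366, had 1 read in OvW and 0 in the other libraries, and no fold was given for it. The 3 *DXS* copies, 3 *DXR* copies, 2 *ISPF* copies and 2 *ISPH* copies are each matches to a single *Arabidopsis* gene, while *ISPD*, *ISPE* and *ISPG* had 1 copy each.

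Petals of half-open flowers from 4 greenhouse-grown materials were sequenced, with 1 library each. M4 is a *B. napus* line that holds an extra chromosome pair from *O. violaceus* and has red on its yellow petals, and H3 is its *B. napus* parent, cv. Huashuang 3, with yellow petals. OvP is wild-type *O. violaceus* with purple petals, and OvW is its natural white-petalled mutant. All reads were mapped to the *B. rapa* genome, a relative of both species, so an *O. violaceus* read or a read from the other subgenome of *B. napus* was counted only where it matched a *B. rapa* gene. A read of the added chromosomes in M4 could not be told from a read of *B. napus*, and fewer cells of a type cannot be told apart from less RNA per cell in whole petals. With 1 library per material there was no replicate check, so every interval below covers counting error only and every test compares libraries, not materials.

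The M4 library held 15507389 assigned reads and the H3 library 16447021, while OvP held 1850787 and OvW 2040729. The floor of 3 reads, as counts scaled to library size (CPM), equalled 0.193 CPM for M4 and 0.182 for H3, and 1.62 for OvP and 1.47 for OvW, so low levels were measured less well in the *O. violaceus* libraries. Folds were scaled by the trimmed mean of M values (TMM) within each pair, and a gene was called where an exact binomial test gave p of at most 0.01 and the fold was at least 2 or at most 0.5. With total reads as the scale, the median log2 fold of all *Arabidopsis* genes in M4 over H3 was 0.40 instead of 0.02, which raised every M4 over H3 fold. In OvP over OvW the same change moved the median from -0.01 to 0.08.

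The MEP pathway makes isopentenyl diphosphate (IPP) and dimethylallyl diphosphate (DMAPP), the building blocks of isoprenoids, in plastids. Carotenoids, the phytol tail of chlorophyll, tocopherols, plastoquinone, gibberellins and many floral volatiles are built from them, whereas sterols are made mainly from IPP of the separate mevalonate pathway in the cytosol. *DXS* starts the route by joining pyruvate and glyceraldehyde 3-phosphate and is widely regarded as its main control point. *DXR* commits the product to the pathway as MEP, *ISPD* attaches a cytidyl group, *ISPE* phosphorylates the intermediate, *ISPF* closes it into a ring, and the iron-sulfur enzymes *ISPG* and *ISPH* reduce it to IPP and DMAPP.

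Transcripts of the pathway formed a larger part of the mapped reads in the *O. violaceus* petals than in the *B. napus* petals. The 13 genes took 37129 reads in M4 and 44596 in H3, or 0.239% and 0.271% of all assigned reads. In *O. violaceus* they took 17575 reads in OvP and 28707 in OvW, or 0.950% and 1.41%. Their summed RPKM, a level scaled to library size and gene length, came to 1373 for M4 and 1596 for H3, and to 5460 for OvP and 7967 for OvW. The study reported that a far smaller part of the clean reads mapped to *B. rapa* in *O. violaceus* than in *B. napus*. The shares above are of assigned reads only. A difference in level between the species cannot be told apart from a difference in mapping, so these levels are set side by side without a test. Within each pair the summed reads were lower in the line with red or purple pigment, with a fold of 0.677 (95% interval 0.667 to 0.686) in M4 over H3 and 0.636 (0.624 to 0.648) in OvP over OvW, neither of which passed the fold threshold. With total reads as the scale these folds were 0.883 and 0.675.

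The 7 steps were far from equal in level, with the same 2 enzymes at the top and the same one at the bottom in every library. *ISPH* led in M4 and H3, with a summed RPKM of 775 in M4 and 1105 in H3, and *ISPG* led in OvP and OvW, with 1637 in OvP and 2925 in OvW. *ISPD* was lowest throughout, with 6.62 RPKM in M4 and 0.89 in H3, and 14.1 RPKM in OvP and 20.4 in OvW. The highest step exceeded the lowest 117-fold in M4 and 1242-fold in H3, and 116-fold in OvP and 144-fold in OvW, so H3 had the widest spread of the 4 libraries.

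*DXS*, the entry enzyme, had a summed RPKM of 83.8 in M4 and 81.0 in H3, far below the 1094 of OvP and the 1126 of OvW. *DXR* had 113 in M4 and 72.5 in H3, and 640 in OvP and 1363 in OvW. *ISPE*, the kinase, had 18.1 in M4 and 5.27 in H3, and 264 in OvP and 135 in OvW. By RPKM these early and middle steps stood well above their *B. napus* levels in both *O. violaceus* libraries. The late step *ISPG* did too, at 1637 in OvP and 2925 in OvW against 355 in M4 and 327 in H3. *ISPH*, at 1223 in OvP and 2009 in OvW, was closer across the species. As with the sums, such differences cannot be told apart from differences in mapping to *B. rapa*. By rank among all *Arabidopsis* genes, the *ISPF* sum lay at percentile 65.9 in M4 and 44.0 in H3, and 98.6 in OvP and 98.0 in OvW, and the *ISPH* sum at 99.2, 99.5, 99.5 and 99.7 in the same libraries. *ISPG* and *ISPH* together made up 82.4% of the summed pathway RPKM in M4 and 89.7% in H3, and 52.4% in OvP and 61.9% in OvW. The 3 middle steps made up 3.32% in M4 and 0.675% in H3, and 15.9% in OvP and 6.84% in OvW.

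**Figure D1:**
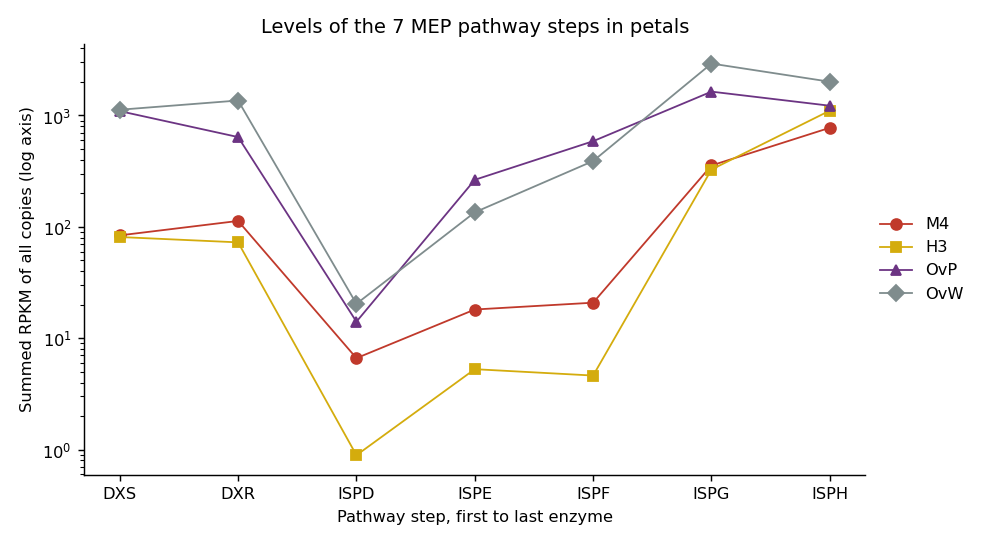
Summed RPKM (log axis) of all copies of each of the 7 MEP pathway steps, in order from the first enzyme to the last, with 1 symbol for each of the 4 libraries and no replicates. *ISPD* is the lowest step in every library, from 0.89 in H3 to 20.4 in OvW, and the H3 line dips furthest below M4 at *ISPD*, *ISPE* and *ISPF*.

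The first comparison asked how the pathway in the addition line differed from that of its *B. napus* parent. As sums over copies, the middle steps of the pathway were called higher in M4 and the first and last steps were not called, although single copies of *DXS* and *DXR* rose. Summed over copies, 3 of the 7 steps rose, *ISPD*, *ISPE* and *ISPF*, and 0 fell, where 16.6% of the 19245 *Arabidopsis* genes tested were called higher and 13.7% lower. The median log2 fold of the 7 steps was 0.26, beside 0.01 for all *Arabidopsis* genes with at least 20 reads. Together *ISPD*, *ISPE* and *ISPF* had 609 reads in M4 against 154 in H3, a fold of 3.21 (95% interval 2.69 to 3.86). Since these are the 3 steps called higher, this sum restates their calls and adds no separate test. Of single copies, 6 of the 12 tested were called higher and 1 lower, where 16.2% of 34286 genes were called higher and 12.7% lower. Scaled by total reads, 6 copies were higher and 0 lower, with 22.9% of all genes called higher and 7.98% lower, and 3 steps were higher and 0 lower, with 24.2% of *Arabidopsis* genes called higher and 8.23% lower. If libraries of one material were assumed to vary with a biological coefficient of variation (BCV) of 0.4, *ISPD* alone of these members stayed called.

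*ISPD* (Bra026591, chromosome A02) showed the largest fold of the members in this pair. It had 88 reads in M4 against 12 in H3, a fold of 5.96 (95% interval 3.25 to 12). The wide interval reflects the few reads, and the step stayed at percentile 44.3 of all *Arabidopsis* genes in M4 and 24.0 in H3. *ISPE* (Bra012040, A07), the kinase, had 286 reads in M4 against 87 in H3, a fold of 2.67 (2.09 to 3.44).

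Both copies of the cyclase gene *ISPF*, which lie on chromosome A09, rose by a like amount. Bra027672 had 172 reads in M4 against 40 in H3, a fold of 3.49 (2.47 to 5.06). Bra027770 had 63 reads in M4 against 15 in H3, a fold of 3.41 (1.92 to 6.45). Bra027672 supplied 73.2% of the *ISPF* reads in M4 and 72.7% in H3, so the split between the copies was nearly the same while the sum was 3.47-fold (2.58 to 4.75) higher. Matches to one *Arabidopsis* gene can share reads where they are near-identical, and the counts do not separate such copies.

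The entry enzyme *DXS* changed in make-up more than in amount. The sum was 2827 reads in M4 against 2903 in H3, a fold of 0.791 (0.751 to 0.834) that passed no fold threshold and was 1.03 with total reads. Within the sum, Bra012779 (A03) rose, with 1163 reads in M4 against 347 in H3 and a fold of 2.72 (2.41 to 3.08). Bra033495 (A01), the copy with most reads in both libraries, had 1637 reads in M4 against 2537 in H3, a fold of 0.524 (0.492 to 0.558) that was not called. The other A03 copy, Bra001832, was almost unread in *B. napus*, with 27 reads in M4 and 19 in H3. Bra033495 therefore supplied 57.9% (95% exact binomial interval 56.1 to 59.7) of *DXS* reads in M4 and 87.4% (86.1 to 88.6) in H3, while Bra012779 supplied 41.1% (39.3 to 43.0) in M4 and 12% (10.8 to 13.2) in H3.

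*DXR*, the committing enzyme, followed a similar pattern. Its minor copy Bra035881 (A09) rose, with 768 reads in M4 against 188 in H3 and a fold of 3.32 (2.83 to 3.91). The major copy Bra010123 (A06) had 1855 reads in M4 against 1586 in H3, a fold of 0.951 (0.888 to 1.02) that became 1.24 with total reads. The minor copy thus made up 29.3% of the *DXR* reads in M4 and 10.6% in H3, and the step as a whole, at 1.2 (1.13 to 1.28), was not called.

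The 2 iron-sulfur enzymes at the end of the pathway, which carried most of its reads, were not higher in M4 under TMM. *ISPG* (Bra002468, A10) had 11949 reads in M4 against 11548 in H3, a fold of 0.841 (0.820 to 0.863), and 1.1 with total reads. Of the *ISPH* copies, Bra011522 (A01) fell, with 9966 reads in M4 against 16674 in H3 and a fold of 0.486 (0.474 to 0.498). That call stood just past the threshold and was lost with total reads, where the fold was 0.634, and with folds from RPKM, where it was 0.628. Bra034620 (A08) had 9155 reads in M4 against 11543 in H3, a fold of 0.645 (0.627 to 0.663), and the *ISPH* sum, at 0.551 (0.541 to 0.561), was not called.

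**Figure D2:**
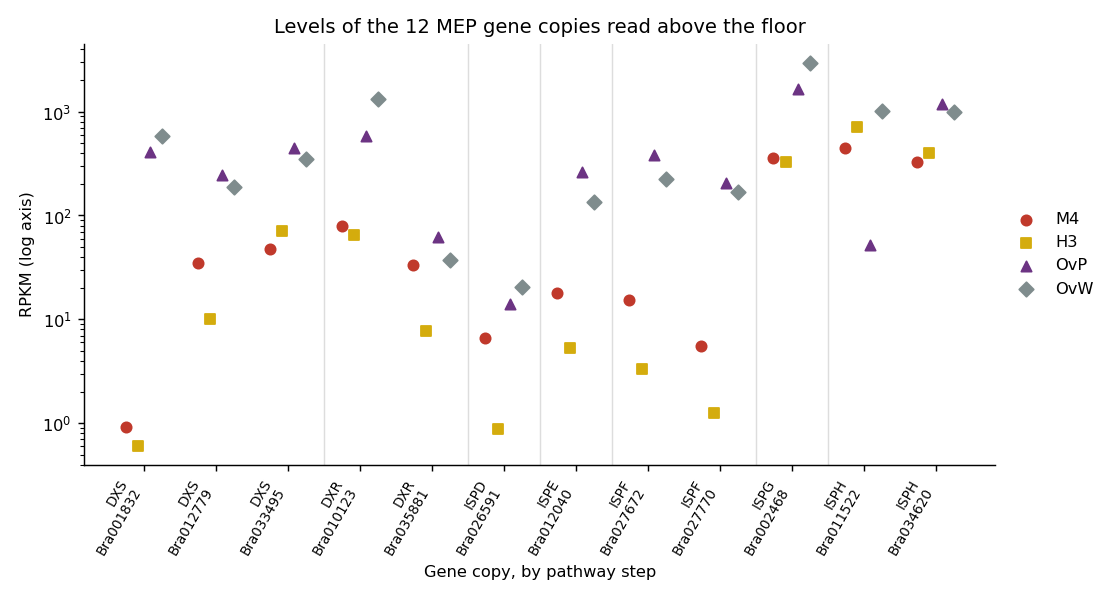
RPKM (log axis) of the 12 MEP gene copies above the floor in M4 (red circles), H3 (yellow squares), OvP (purple triangles) and OvW (grey diamonds), 1 library each. Bra011522 in OvP (52.5 RPKM) lies below the other 3 libraries, and Bra001832 is near 1 RPKM in M4 and H3 but at 404 in OvP and 584 in OvW.

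The second comparison set purple against white petals within *O. violaceus*. Fewer copies were called, both were lower in OvP, and a single *ISPH* copy showed by far the largest difference. Of 13 copies tested, 2 fell and 0 rose, where 5.76% of 33743 genes were called lower and 5.60% higher. By step, 1 of 7 fell, *DXR*, and 0 rose, where 6.63% of 19096 *Arabidopsis* genes were called lower and 6.07% higher. The median log2 fold of the 7 steps was -0.60, beside -0.01 for all *Arabidopsis* genes with at least 20 reads. At an assumed BCV of 0.4, the *ISPH* copy Bra011522 alone stayed called.

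The *ISPH* copies parted in this pair. Bra011522 had 137 reads in OvP and 2929 in OvW, a fold of 0.0486 (0.0406 to 0.0577), or 20.6-fold lower in OvP. Bra034620 had 3801 reads in OvP and 3543 in OvW, a fold of 1.11 (1.06 to 1.17). By RPKM, Bra011522 stood at 52.5 in OvP and 1016 in OvW, and Bra034620 at 1171 in OvP and 993 in OvW, so the copies were level with each other in OvW and unequal in OvP. The sum, 3938 reads in OvP and 6472 in OvW, gave 0.632 (0.608 to 0.658) and was not called. These are counts of *O. violaceus* reads at *B. rapa* genes, and near-identical copies can share reads. Whether OvP and OvW reads matched the copies differently was not tested.

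The *DXR* step fell with its major copy. Bra010123 had 1579 reads in OvP and 3973 in OvW, a fold of 0.413 (0.389 to 0.438), and the sum gave 0.444 (0.419 to 0.470). The minor copy Bra035881 had 166 reads in OvP and 111 in OvW, a fold of 1.55 (1.21 to 1.99) that was not called. *ISPG* had 6446 reads in OvP and 12658 in OvW, a fold of 0.529 (0.513 to 0.545), close to the threshold but not past it.

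The other steps differed by less than the fold threshold. *DXS* had 4156 reads in OvP and 4615 in OvW, a fold of 0.936 (0.897 to 0.976). Among its copies, Bra001832 gave 0.654 (0.611 to 0.699), Bra012779 1.21 (1.1 to 1.33) and Bra033495 1.20 (1.12 to 1.29). *ISPE* had 489 reads in OvP and 274 in OvW, a fold of 1.85 (1.60 to 2.16), the highest of the steps in this pair. The *ISPF* copies gave 1.62 (1.40 to 1.87) for Bra027672, with 506 reads in OvP and 325 in OvW, and 1.17 (0.978 to 1.39) for Bra027770, with 273 and 243 in the same libraries. *ISPD* had 22 reads in OvP and 35 in OvW, and its fold of 0.653 (0.365 to 1.15) could not be told from equality at this depth.

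**Figure D3:**
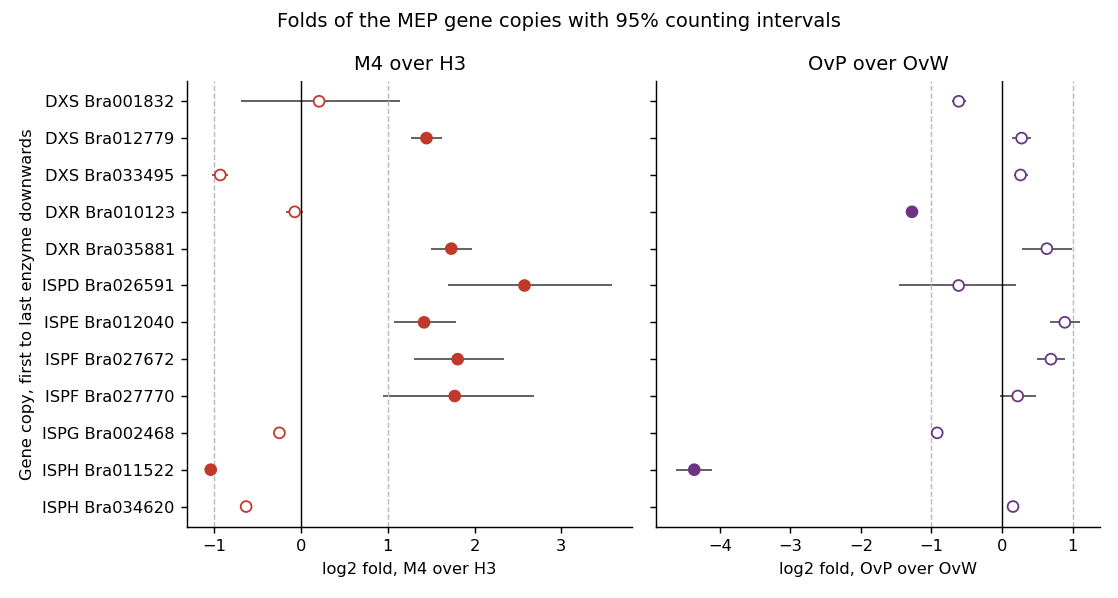
Log2 fold of each of the 12 MEP copies, M4 over H3 and OvP over OvW, with 95% exact intervals for counting error, filled symbols for called copies and dashed lines at -1 and 1. In M4 over H3 the filled symbols above zero are 6 copies of *DXS*, *DXR*, *ISPD*, *ISPE* and *ISPF*, and in OvP over OvW Bra011522 lies at -4.36.

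The folds of the 2 pairs were then set against each other in a model with an interaction term for each *Arabidopsis* gene, with p-values adjusted by Benjamini-Hochberg over 12582 genes. For 3 of the 7 steps the M4 over H3 fold was at least 2 times the OvP over OvW fold. Of all genes tested, 16.9% were called in that direction and 31.6% in either direction. The ratio of folds was 9.12 (95% interval 4.08 to 20.4, edgeR likelihood ratio test, adjusted p = 3.7e-08) for *ISPD*, 2.71 (2.49 to 2.94, adjusted p = 6.1e-127) for *DXR* and 2.44 (1.78 to 3.33, adjusted p = 1.8e-08) for *ISPF*. The ratio was 1.59 (1.53 to 1.65) for *ISPG*, 1.44 (1.09 to 1.91) for *ISPE*, 0.871 (0.834 to 0.910) for *ISPH* and 0.846 (0.791 to 0.904) for *DXS*, and none of these 4 was called. These p-values rest on a dispersion near 0, and at an assumed BCV of 0.2 only *ISPD* stayed called, while at 0.4 none of the 7 steps did. Per copy, a test added after the data were seen, the ratio was largest for *ISPH* Bra011522 at 9.99 (8.41 to 11.9) and smallest for *DXS* Bra033495 at 0.437, and 8 of 12 copies were called, where 33.7% of 17341 genes were.

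The use of copies was compared as the shift in shares of reads, the summed absolute difference of the copies' shares divided by 2, for *Arabidopsis* genes with more than 1 copy. In M4 over H3 the shift was 0.295 for *DXS*, above the threshold of 0.2 that 15.3% of 6675 genes passed. It was 0.187 for *DXR*, 0.0697 for *ISPH* and 0.00464 for *ISPF*, beside a median of 0.0618 over all genes. In OvP over OvW it was 0.418 for *ISPH*, past the threshold as were 10.9% of 3138 genes and at percentile 98.7 of them. It was 0.147 for *DXS*, 0.0774 for *ISPF* and 0.0680 for *DXR*, beside a median of 0.0656.

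Bra011522 supplied 3.48% (95% exact binomial interval 2.93 to 4.1) of the *ISPH* reads in OvP and 45.3% (44.0 to 46.5) in OvW, and 52.1% (51.4 to 52.8) of those in M4 and 59.1% (58.5 to 59.7) of those in H3. By these counts OvP was therefore the library apart from the other 3, and whether its reads matched the *B. rapa* copies differently was not tested. The *DXS* copy Bra001832 separated the species instead, with 34.1% of the reads in OvP and 48.8% in OvW, against 0.955% in M4 and 0.654% in H3. Its RPKM was 404 in OvP and 584 in OvW, and 0.92 in M4 and 0.61 in H3, which cannot be told apart from a difference in mapping. Within *B. napus* its fold was 1.15 (0.619 to 2.20) in M4 over H3, which was not called.

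**Figure D4:**
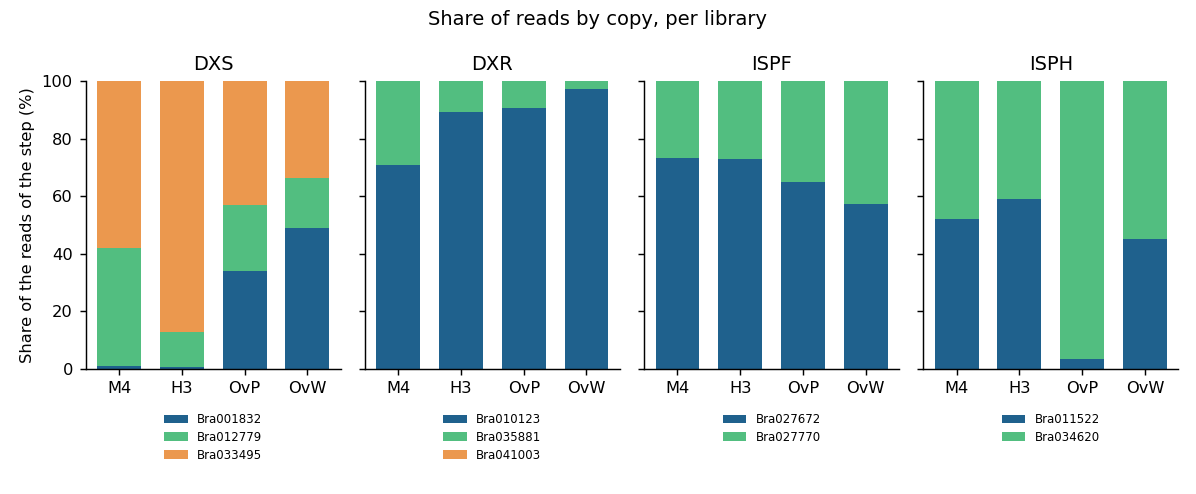
Share of each copy (%) in the reads of the 4 MEP steps with more than 1 copy, in M4, H3, OvP and OvW. Bra011522 takes 3.48% of *ISPH* in OvP and 45.3% in OvW, and Bra033495 takes 57.9% of *DXS* in M4 and 87.4% in H3.

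The steps that follow directly on the pathway showed no called difference. The IPP isomerases interconvert IPP and DMAPP. *IPP1* had 156 reads in M4 against 88 in H3, a fold of 1.44 (1.1 to 1.89), and 3246 reads in OvP and 3175 in OvW, a fold of 1.06 (1.01 to 1.12). *IPP2* had 3324 reads in M4 against 5117 in H3, a fold of 0.528 (0.505 to 0.552), and 1369 in OvP and 1363 in OvW, a fold of 1.04 (0.968 to 1.13). *IPP1*, like *DXS* Bra001832, stood out between species, with 2186 RPKM in OvP and 1946 in OvW but only 12.4 in M4 and 6.65 in H3. This too cannot be told apart from a difference in mapping. *DXPS3*, a *DXS* paralog, had 238 reads in M4 against 212 in H3, a fold of 0.912 (0.755 to 1.1), and 12 in OvP and 26 in OvW, a fold of 0.480 (0.220 to 0.985) that did not pass the exact test at p of 0.01. Of the 4 genes of this list, 3 were in the table.

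The cytosolic mevalonate pathway, which also makes IPP, was mixed in M4 and even in *O. violaceus*. Of its 8 genes tested, 2 rose and 3 fell in M4 over H3, and 0 were called in OvP over OvW. Of all *Arabidopsis* genes tested, 16.6% were called higher and 13.7% lower in M4 over H3. In OvP over OvW these shares were 6.07% and 6.63%. *MK*, mevalonate kinase, had 100 reads in M4 against 18 in H3, a fold of 4.51, and *AACT2*, an acetoacetyl-CoA thiolase, had 517 in M4 against 105 in H3, a fold of 4.0. The thiolase gene *AACT1* fell to 0.294 of its H3 level. *HMG1* and *HMG2*, which encode the rate-limiting HMG-CoA reductase, fell to 0.327 and 0.348, and *HMG1* alone had 12041 reads in M4 and 29898 in H3. The median log2 fold of the list was 0.35 in M4 over H3 and 0.10 in OvP over OvW. In OvP over OvW the highest folds were 1.35 for *MK* and 1.30 for *HMGS*, and the lowest were 0.865 for *HMG1* and 0.927 for *MVD2*. With total reads as the scale, 3 genes rose and 3 fell in M4 over H3, where 24.2% of *Arabidopsis* genes rose and 8.23% fell.

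Among 19 plastid genes that use the precursors, 4 rose and 6 fell in M4 over H3, and 2 rose and 1 fell in OvP over OvW. Of all *Arabidopsis* genes tested, 16.6% were called higher and 13.7% lower in M4 over H3. In OvP over OvW these shares were 6.07% and 6.63%. *HST*, of plastoquinone synthesis, had 42 reads in M4 against 10 in H3, a fold of 3.41, and *GGPPS11*, the main plastid geranylgeranyl diphosphate synthase, had 1573 in M4 against 443 in H3, a fold of 2.89. The largest falls were those of the terpene synthase *TPS14*, with 3 reads in M4 against 268 in H3 and a fold of 0.00910 (0.00186 to 0.0269), and *CPS*, of gibberellin synthesis, with a fold of 0.147. In the *O. violaceus* pair 2 carotenoid genes rose. *LCYB*, lycopene beta-cyclase, had 127 reads in OvP and 31 in OvW, a fold of 4.26 (2.86 to 6.52). *PSY*, phytoene synthase, had 234 in OvP and 109 in OvW, a fold of 2.23 (1.77 to 2.83). The other carotenoid genes of the list were not called, at 0.827 for *Z-ISO*, 0.761 for *ZDS*, 0.742 for *CRTISO*, 0.637 for *PDS* and 0.594 for *LCYE*. *LCYE* rested on 4 reads in OvP and 7 in OvW. In M4 over H3, *LCYB* (0.361) and *PDS* (0.492) were called lower and *CRTISO* (2.04) higher. *VTE2*, of tocopherol synthesis, had 15 reads in OvP and 6 in OvW, a fold of 2.60 that was not called. *TPS10*, a monoterpene synthase, fell to 0.322, and *GGPPS11* had a fold of 0.619. The median log2 fold of these genes was -0.25 in M4 over H3 and -0.27 in OvP over OvW. Scaled by total reads, the M4 over H3 counts turned to 6 higher and 4 lower, where 24.2% of *Arabidopsis* genes were higher and 8.23% lower. The summed RPKM of the 19 genes was 3149 in M4 and 2593 in H3, and 666 in OvP and 660 in OvW. This difference between species cannot be told apart from a difference in mapping. *PSY* alone had 1208 RPKM in M4 and 697 in H3, while *HST*, *VTE3* and *TPS10* were higher in both *O. violaceus* libraries than in M4 and H3.

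*ISPG* and *ISPH* depend on iron-sulfur clusters and take electrons from ferredoxin, and 16 genes of plastid cluster assembly and ferredoxin supply were tested. In M4 over H3, 5 fell and 0 rose, with a median log2 fold of -0.80, where 13.7% of all *Arabidopsis* genes were called lower. The lowest were *LFNR2*, a leaf ferredoxin-NADP reductase, at 0.215 with 721 reads in M4 and 2728 in H3, and the assembly scaffold gene *SUFB* at 0.244. *NFU1*, *LFNR1* and the leaf ferredoxin *FD2* fell to 0.280, 0.318 and 0.335. The highest folds were those of the root-type reductases, 1.46 for *RFNR1* and 1.36 for *RFNR2*, and neither was called. In OvP over OvW, 6 fell and 0 rose, with a median of -0.23, where 6.63% of all *Arabidopsis* genes were called lower. *LFNR2* had 32 reads in OvP and 280 in OvW, a fold of 0.119 (0.0797 to 0.172), *LFNR1* fell to 0.198, and *NFU1*, *FD1*, *NFS2* and *FD2* were also called lower, while 5 genes fell when scaled by total reads. The highest folds were 1.75 for the root-type ferredoxin *FD3* and 1.62 for *SUFE1*, not called.

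Several of these genes serve photosynthesis, and green tissue markers moved the same way. In M4 over H3, 5 of 8 green tissue markers fell and 0 rose, where 13.7% of all *Arabidopsis* genes were called lower. The markers had a summed RPKM of 274 in M4 and 517 in H3. *PRK*, of the Calvin cycle, and *PSBO1*, of photosystem II, were lowest at 0.210 and 0.324, *LHCA1*, *LHCB3* and *GAPA* fell to 0.469, 0.492 and 0.493, and *LHCB4.1* and *LHCB1.1* were highest at 1.29 and 0.818. Only 2 fell when scaled by total reads, where 8.23% of all *Arabidopsis* genes were called lower. In OvP over OvW, 8 of 9 fell and 0 rose, where 6.63% of all *Arabidopsis* genes were called lower. The markers had a summed RPKM of 1295 in OvP and 4064 in OvW. *LHCB1.1* and *LHCB4.1*, of the light-harvesting antenna, were lowest at 0.186 and 0.191, and *GAPA* and *PSBO1* were highest at 0.442 and 0.379. *RBCS1A*, a defining marker of the list, had 0 reads in M4, H3 and OvW and 1 read in OvP. *DXR*, *ISPG* and *ISPH* Bra011522 were lower in OvP beside these markers, while *ISPE*, *ISPF* and *ISPH* Bra034620 were not, at 1.85, 1.43 and 1.11. In M4 over H3, *ISPD*, *ISPE* and *ISPF* rose while the markers fell. The part of green tissue in the MEP folds was not tested.

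The tissue was checked against its own markers. The petal identity genes *AP3* and *PI* were high in all libraries, with an *AP3* RPKM of 1609 in M4 and 1455 in H3, and 4089 in OvP and 5832 in OvW. *SEP3* fell in both pairs, to 0.482 in M4 over H3 and 0.487 in OvP over OvW, and neither call held when scaled by total reads. In the same order, *AP1* had folds of 1.26 and 1.18, *AP3* 0.850 and 0.661, and *PI* 0.651 and 0.553. The summed RPKM of 7 anther and pollen markers was 16.8 in M4 and 21.5 in H3, and 53.2 in OvP and 45.9 in OvW. Of these markers with at least 20 reads in M4 and H3 together, *VGD1* fell to 0.449 in M4 over H3 and *MS2* stood at 0.511. *AMS* and *CYP703A2* were the highest of them at 1.94 and 1.13, not called. On fewer reads, *LAP6* had 14 in M4 and 2 in H3, a fold of 5.69 (1.31 to 51.6) that was not called. Under TMM 0 of the 7 anther and pollen markers were higher and 1 lower, whereas 2 were higher and 0 lower when scaled by total reads. Of all *Arabidopsis* genes tested in M4 over H3, 16.6% were called higher and 13.7% lower under TMM. With total reads these shares were 24.2% and 8.23%, so the shares over all genes turned the same way. In OvP over OvW under TMM, 6.07% of all *Arabidopsis* genes were called higher and 6.63% lower. None of the anther and pollen markers was called in that pair. Of those with 20 reads, *MS2* at 1.69 and *A9* at 1.50 were at the top, and *VGD1* at 0.660 and *LAP5* at 1.48 at the bottom. The 4 carpel markers summed to 9.34 RPKM in M4 and 20.4 in H3, and 15.6 in OvP and 14.3 in OvW. *SHP2* fell to 0.282 in M4 over H3 and had 0 reads in OvP and OvW, while *SHP1* had folds of 0.599 and 0.959. On fewer reads, *AG* had 14 in M4 and 3 in H3, a fold of 3.79. *STK* had 5 in M4 and 9 in H3, a fold of 0.451, and neither was called. Scaled by total reads, 1 carpel marker was higher and 1 lower in M4 over H3, against 0 higher and 1 lower under TMM.

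Genes known in *Arabidopsis* to act on *DXS* protein or on MEP transcripts followed. Of 4 chaperone and protease genes of *DXS* protein turnover, *CLPC1*, the Clp protease chaperone, fell to 0.360 in M4 over H3, with 26703 reads in M4 and 60356 in H3, and the others were 1.34 for *CPHSC70-1*, 0.941 for *J20* and 0.685 for *CLPB3*. None was called in OvP over OvW, where the folds were 1.04 for *CLPB3*, 1.0 for *J20*, 0.992 for *CLPC1* and 0.695 for *CPHSC70-1*. Of 8 light and clock regulators, 4 fell in M4 over H3, *PIF5* to 0.243, *LHY* to 0.337, *PIF4* to 0.356 and *CCA1* to 0.365. *HY5* stood at 1.12 and *TOC1* at 0.920, with a median log2 fold of -1.45 for the list. Of all *Arabidopsis* genes, 13.7% were called lower in this pair. None of the regulators was called in OvP over OvW. Among regulators with at least 20 reads in that pair, *PIF5* was highest at 1.91, followed by *TOC1* at 0.917. *CCA1* and *HY5* were the lowest of these at 0.592 and 0.656. On fewer reads, *LHY* stood at 0.277, with 4 in OvP and 15 in OvW, and *PIF4* at 0.520, with 2 in OvP and 4 in OvW. *PIF5* passed the threshold in that pair when scaled by total reads.

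**Figure D5:**
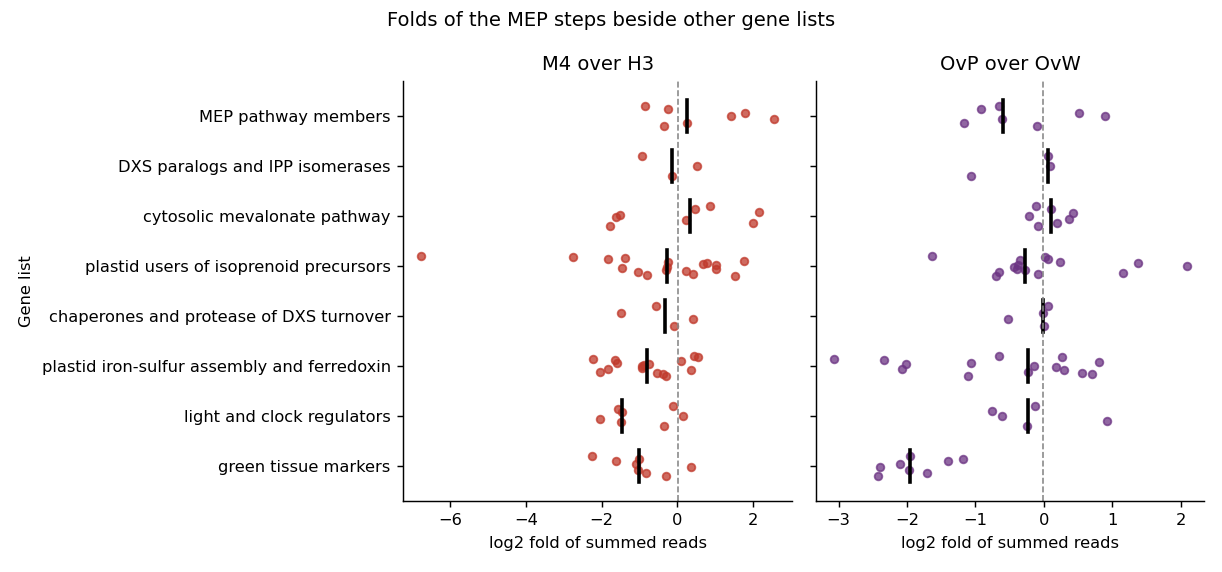
Log2 fold of each *Arabidopsis* gene with at least 20 reads in the pair, for the MEP steps and related gene lists, with a black bar at each list's median and a dashed line at the median of all *Arabidopsis* genes. The MEP median is 0.26 in M4 over H3 and -0.60 in OvP over OvW, and the iron-sulfur and ferredoxin list is at -0.80 and -0.23.

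Lastly, the pattern of the *ISPH* sum over the 4 libraries was compared with those of 11151 *Arabidopsis* genes with at least 10 RPKM in some library. Likeness was the largest difference, over the libraries, of log2(RPKM + 1) centred on each gene's mean. The 5 nearest genes were *GDPD5* (0.0626), *TUA5* (0.0726), AT2G33510 (0.0848), *RR1* (0.0851) and *ERDL6* (0.0904). *TUA5*, an alpha-tubulin, had 493 RPKM in M4 and 648 in H3, and 713 RPKM in OvP and 1235 in OvW. A difference of at most 0.5 was met by 443 genes, so 4 points set few patterns apart.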

How the data were processed

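Reads were 100-nt paired ends of poly(A) RNA from directional libraries. The authors mapped them to the *B. rapa* genome with TopHat, allowing up to 2 mismatches, and deposited a table of read counts per gene and a table of RPKM. The genome version, tool versions and strand setting were not given in the sources used here. Count columns were matched to samples by name for 3 libraries, and the remaining column, named by a code, was taken as M4 by elimination. The length behind the RPKM is not the length column of the table. Depth (assigned reads) was 15507389 for M4, 16447021 for H3, 1850787 for OvP and 2040729 for OvW.

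The deposited counts were summed over the copies of each *Arabidopsis* gene and tested with the exact binomial test of edgeR 4.0.16 in R 4.3.3, scaled by TMM, with Clopper-Pearson 95% intervals. Calls used p of at most 0.01 with folds from 2 upward or from 0.5 downward, the thresholds of the study. The 2 pairs were compared by an edgeR interaction term at a dispersion near 0, for genes with at least 10 reads in each pair. Copy shifts used genes with at least 50 reads. The code was tested on simulated data. Alternatives were DESeq2 1.42.0 size factors, total reads, folds from RPKM, adjusted p, read minimums, the most-read copy and an assumed biological coefficient of variation (BCV). Members and lists were chosen with earlier results of these data known. Named were all members, all isomerases and *DXS* paralogs, and per other list the 2 highest and 2 lowest folds among genes with at least 20 reads, all calls where at most 5 were made, and the 5 genes most like *ISPH*. Nothing was matched to the RefSeq gene table, where 0 of the 13 IDs were found.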

Additional observations from a re-analysis of the deposited data

Results flagged for a closer look

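For 3 of the 7 steps the fold of M4 over H3 differed from the fold of OvP over OvW in the interaction test. Of 12582 *Arabidopsis* genes in that test, 31.6% were called in either direction. The ratio of the folds was 9.12 for *ISPD*, 2.71 for *DXR* and 2.44 for *ISPF*. *ISPD* was 5.96-fold higher in M4 over H3 and 0.653 in OvP over OvW, on 88 and 12 reads in the first pair and 22 and 35 in the second. The *DXR* folds were 1.2 and 0.444, and the *ISPF* folds were 3.47 and 1.43. Each pair is 1 library against 1, so these ratios compare 4 libraries. At an assumed BCV of 0.2 the *ISPD* ratio alone was called, and at 0.4 none of these 3 was.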

How the results depend on the processing

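The counts of called copies and steps were within 1.5 times the values above with DESeq2 size factors, total reads, folds from RPKM, adjusted p, a minimum of 10 reads and an assumed BCV of 0.1. No fold that was called changed sign. An assumed BCV of 0.4 left 1 copy and 1 step (*ISPD*) called in M4 over H3 in place of 7 and 3, and 1 copy (Bra011522) and 0 steps in OvP over OvW in place of 2 and 1. At that BCV *DXR* in OvP over OvW had p = 0.165, exact test. At a BCV of 0.2, Bra011522 in M4 over H3 had p = 0.0120, exact test. The steps with different folds numbered 1 at a BCV of 0.2 (*ISPD*), 0 at 0.4, and 8 with copies in place of sums, a choice added after the data were seen. With only the most-read copy, 2 steps were called in OvP over OvW, *DXR* and *ISPH*. At a copy shift of 0.1, 2 steps passed in each pair. For uncalled members the direction turned with total reads in M4 over H3 for the *DXS* sum (1.03), *ISPG* (1.1) and Bra010123 (1.24). No paired analysis was possible because each material has 1 library. Depth limits *ISPD* most, at 12 to 88 reads, and library-to-library variation was not measured.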
